A study of Mus musculus with 8 samples.

Results

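Odorant, pheromone and trace amine receptor genes were examined for summits of V5-tagged ZGLP1, a nuclear protein whose zinc fingers resemble those of GATA factors. The members were the protein-coding genes of the RefSeq annotation of GRCm38 (mm10) whose symbol starts with Olfr, Vmn1r, Vmn2r or Taar and a digit. No gene carried the newer Or symbol. They numbered 1478 of 21900 protein-coding genes: 1110 Olfr, 230 Vmn1r, 123 Vmn2r and 15 Taar genes. A member counted as linked if its start or end had a summit within 10 kb, inside or outside the gene. The rule itself uses symbols alone, although this gene group was picked for description with earlier results of these data known.

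The study comprised 8 libraries, of which 5 were ChIP libraries made with a rabbit antibody against the V5 tag and 3 were inputs. All cells were of C57BL/6 x DBA2 strain and carried a V5-tagged Zglp1 that was overexpressed under doxycycline (Dox), so every group shared the introduced protein and no library without it was analysed here. The 4 ChIP libraries of primordial germ cell-like cells (PGCLCs, germ cell precursors made in culture from embryonic stem cells) came from culture day 7 (c7) or day 8 (c8), and received, from day 3, either Dox only or Dox together with retinoic acid. They were sorted for the SC and mCherry reporters. The other ChIP library came from embryonic stem cells (ESCs) given Dox and retinoic acid for 24 h and sorted for mCherry. Each group had 1 library. The values were 32927 summit positions in a single list that names no library and holds no height. Groups could therefore not be compared, no test over samples was possible, and depth is unknown. Absence from the list does not separate an unbound gene from one under the peak threshold. The list holds no expression values, so the labelled cell types could not be checked against markers.

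Odorant receptors (Olfr genes) are G protein-coupled receptors of the nose, and each olfactory neuron is known for expressing a single receptor gene of this very large family. Vmn1r and Vmn2r genes encode the 2 receptor families of the vomeronasal organ, which detects pheromones. Taar genes encode trace amine-associated receptors, most of which detect volatile amines in the nose. The genes lie in tandem clusters and, in tissues other than the sensory epithelia, are mostly silent in compact chromatin.

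Promoter sequences are printed below for some linked receptor genes and for neighbours at whose start a summit lay. As the receptor genes were picked from those with a summit, their sequences do not stand for receptor promoters at large. All are RefSeq sequences of GRCm38.p6, 250 bases before to 50 bases after the annotated start, written 5′ to 3′. Of the 1478 members, 1276 had one in the table used. The promoters of 4 receptor genes come first because these genes had a summit within 1 kb of the start. Vmn2r29 also had one, 284 bases from the start. Its promoter, which held no spelling of the GATA factor motif searched, is printed last. In the first 4, capitals mark the 4 spellings of the GATA factor motif searched on both strands. These are the word AGATAA, the word TGATAA, and each of these with its last base changed to G.
Olfr95, chr17:37211802-37212101, minus strand: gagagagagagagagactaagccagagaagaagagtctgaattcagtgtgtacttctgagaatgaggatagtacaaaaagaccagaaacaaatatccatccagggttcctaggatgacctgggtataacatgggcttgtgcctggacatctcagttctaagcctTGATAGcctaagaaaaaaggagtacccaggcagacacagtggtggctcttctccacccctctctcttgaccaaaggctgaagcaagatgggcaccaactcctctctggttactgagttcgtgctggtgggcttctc
Olfr94, chr17:37197917-37198216, minus strand: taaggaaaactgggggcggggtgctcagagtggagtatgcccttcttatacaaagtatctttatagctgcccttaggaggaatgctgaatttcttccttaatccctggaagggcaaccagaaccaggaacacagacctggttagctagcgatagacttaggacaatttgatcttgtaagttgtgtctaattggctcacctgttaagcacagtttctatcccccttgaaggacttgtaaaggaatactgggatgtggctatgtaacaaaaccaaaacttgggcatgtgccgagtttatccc
Olfr1140, chr2:87745911-87746210, plus strand: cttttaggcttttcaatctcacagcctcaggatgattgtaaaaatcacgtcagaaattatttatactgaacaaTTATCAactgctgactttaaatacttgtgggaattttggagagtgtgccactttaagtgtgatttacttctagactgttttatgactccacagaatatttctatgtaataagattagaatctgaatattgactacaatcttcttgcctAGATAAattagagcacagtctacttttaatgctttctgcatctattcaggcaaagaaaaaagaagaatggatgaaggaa
Vmn1r28, chr6:58264924-58265223, plus strand: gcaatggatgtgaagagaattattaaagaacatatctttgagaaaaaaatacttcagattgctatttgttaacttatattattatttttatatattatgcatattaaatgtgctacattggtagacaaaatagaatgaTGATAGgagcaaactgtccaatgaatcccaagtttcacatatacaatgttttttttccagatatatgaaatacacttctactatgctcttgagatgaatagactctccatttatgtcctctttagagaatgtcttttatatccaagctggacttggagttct
Olfr95 and Vmn1r28 held 1 such word, Olfr1140 held 2 and Olfr94 held 0. Next come 2 receptor genes with their zinc finger or mitochondrial neighbour, because in both cases the summit lay at the neighbour's start. The promoter of Vmn2r29 follows as the member with most CpG dinucleotides. In these 5 sequences capitals mark every CG.
Olfr986, chr9:40186829-40187128, plus strand: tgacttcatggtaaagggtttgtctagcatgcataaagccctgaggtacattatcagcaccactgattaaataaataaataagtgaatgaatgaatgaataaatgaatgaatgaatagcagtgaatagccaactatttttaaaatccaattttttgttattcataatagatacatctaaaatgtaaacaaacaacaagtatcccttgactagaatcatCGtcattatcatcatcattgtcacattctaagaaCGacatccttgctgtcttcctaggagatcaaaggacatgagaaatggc
Zfp202, chr9:40192066-40192365, plus strand: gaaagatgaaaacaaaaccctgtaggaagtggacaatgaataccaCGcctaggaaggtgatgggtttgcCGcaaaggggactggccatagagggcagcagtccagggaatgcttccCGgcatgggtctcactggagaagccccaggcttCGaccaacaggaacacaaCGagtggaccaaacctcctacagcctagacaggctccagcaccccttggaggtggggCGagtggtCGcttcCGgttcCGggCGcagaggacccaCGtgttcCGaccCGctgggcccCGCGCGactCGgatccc
Olfr1416, chr1:92480570-92480869, minus strand: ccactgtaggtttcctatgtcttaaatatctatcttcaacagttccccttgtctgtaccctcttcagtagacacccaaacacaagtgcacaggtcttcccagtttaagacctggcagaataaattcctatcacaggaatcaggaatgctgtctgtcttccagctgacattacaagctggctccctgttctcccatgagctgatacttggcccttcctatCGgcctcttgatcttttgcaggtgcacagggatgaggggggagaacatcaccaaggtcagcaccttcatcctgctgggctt
Ndufa10, chr1:92473709-92474008, minus strand: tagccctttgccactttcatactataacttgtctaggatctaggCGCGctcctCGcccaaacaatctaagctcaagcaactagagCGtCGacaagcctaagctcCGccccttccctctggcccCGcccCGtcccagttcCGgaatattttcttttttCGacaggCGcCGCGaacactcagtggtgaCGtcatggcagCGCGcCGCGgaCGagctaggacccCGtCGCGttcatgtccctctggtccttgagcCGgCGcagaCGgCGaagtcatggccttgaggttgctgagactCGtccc
Vmn2r29, chr7:7278240-7278539, minus strand: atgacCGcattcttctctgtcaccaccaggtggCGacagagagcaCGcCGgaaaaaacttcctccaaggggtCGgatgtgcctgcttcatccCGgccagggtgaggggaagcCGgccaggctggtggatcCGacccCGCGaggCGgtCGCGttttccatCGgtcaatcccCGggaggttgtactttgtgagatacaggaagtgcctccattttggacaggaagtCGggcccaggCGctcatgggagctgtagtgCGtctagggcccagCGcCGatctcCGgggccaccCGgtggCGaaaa
The promoters of Olfr986 and Olfr1416 held 2 and 1 CpG, those of Zfp202 and Ndufa10 held 17 and 27, and that of Vmn2r29 held 23.

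Few receptor genes had a summit. Of 1478 members, 45 were linked (3.04%, exact 95% binomial interval 2.23 to 4.05), and 1433 were not. Over all protein-coding genes the share was 66.6%, and over the 20422 that are no receptor it was 71.2%. Within 1 kb of an end, 7 members (0.474%) had a summit, while 52.9% of all protein-coding genes did. Within 50 kb it was 241 members (16.3%), against 78% of all protein-coding genes. The median member lay 196529 bases from the closest summit, against 657.5 bases over all protein-coding genes. Intervals cover counting error only and treat genes as independent, whereas neighbouring genes can share a summit.

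Few members of any family were linked. Odorant receptors were linked in 35 of 1110 cases (3.15%, interval 2.21 to 4.36), and their median distance to a summit was 189338.5 bases. Vmn1r genes were linked in 3 of 230 cases (1.30%, interval 0.270 to 3.76). Vmn2r genes, which are longer (median span 24544 bases against 950 for Olfr), were linked in 7 of 123 (5.69%, interval 2.32 to 11.4). Their median distances were 237089.5 and 226880 bases. No Taar gene was linked, 0 of 15, which allows a share of up to 20.0%, and the median distance there was 121055 bases. The intervals of the families overlap, and no test between them was made.

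**Figure D1:**
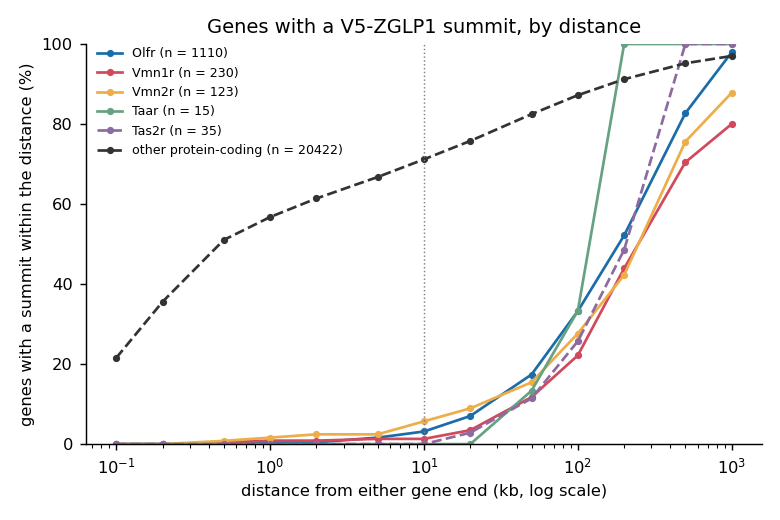
Percent of genes with a summit within a given distance of either end (x axis, kb, log scale), for the 4 receptor families, the Tas2r taste receptors and all other protein-coding genes. At 10 kb, marked by the dotted line, the receptor families lie between 0 and 5.69% and the other genes at 71.2%.

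Of the 45 linked members, 40 had 1 summit, 4 had 2 and 1 (Olfr1417) had 3. Distances filled the window: 7 members had the closest summit within 1 kb, 17 between 1 and 5 kb, and 21 between 5 and 10 kb. The members just inside the limit were Olfr875 (9554 bases), Olfr1279 (9829) and Olfr147 (9852), and those just outside were Olfr1424 (10075), Olfr1358 (10317) and Olfr1375 (10317). Taken by position, 46 summits lay within 10 kb of a member, 0.140% of the 32912 summits on the autosomes and X.

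The 7 members with a summit within 1 kb were Vmn1r4, Olfr95, Vmn2r29, Olfr1140, Olfr94, Vmn2r108 and Vmn1r28. In 5 of them the summit lay inside the annotated gene. Olfr95 (chr17, 37210913 to 37211851, Gene ID 258506) had its summit at 37211587, 264 bases downstream of the start. Olfr94 (chr17, 37196806 to 37197966, Gene ID 258219) had its summit at 37197444, 522 bases downstream of the start. These 2 odorant receptor genes are near neighbours at the end of the major histocompatibility complex region. The summit in Olfr94 also lay 1343 bases from Ubd, which encodes a ubiquitin-like protein, while the summit in Olfr95 lay 15486 bases from Ubd, its nearest other protein-coding gene.

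Olfr1140 (chr2, 87746161 to 87747180, Gene ID 258635) had a summit at 87746536, 375 bases downstream of the start. The same summit linked Olfr1141 (6520 bases) and Olfr1138 (8214 bases), and the nearest other protein-coding gene, Pramel6, was 235671 bases away. Vmn1r28 (chr6, 58262307 to 58266660, Gene ID 171198), a vomeronasal receptor gene, had a summit at 58265780, 880 bases inside its upper end and 318711 bases from Abcg2, a drug transporter gene. Vmn2r108 (chr17, 20462373 to 20481236, Gene ID 627805) had a summit at 20461752, 621 bases beyond its lower end, which is not the side of its start. These 3 summits lay inside receptor clusters, with no protein-coding gene of another kind within 150 kb.

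Vmn2r29 (chr7, 7212996 to 7278289, Gene ID 76229) had a summit at 7278005, 284 bases downstream of its start, and Clcn4, which encodes a chloride and proton exchanger, lay 4304 bases away. Vmn1r4 (chr6, 56923914 to 56957608, Gene ID 171194) had the smallest distance, 217 bases, from its lower end to a summit at 56923697. This summit lay inside Nt5c3, a nucleotidase gene, 311 bases from an end of it. For Vmn1r4, which is on the plus strand, the start used for the promoter window was 32816 bases from the summit. The link thus rests on the 5′ boundary of a long gene model and not on that start.

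The summits near receptor genes lay at all distances from other genes. Of the 46, 7 (15.2%) lay within 1 kb of an end of a protein-coding gene that is no receptor, against 42.2% of all summits on the autosomes and X. Another 6 lay within 1 kb of an annotated non-coding gene, 9 lay 1 to 10 kb and 5 lay 10 to 50 kb from a protein-coding end. The remaining 19 lay over 50 kb from every such end, and some of these had a receptor pseudogene closer. With summits at non-coding genes counted alike, 20 of the 46 (43.5%) lay over 50 kb from every such end, against 10.4% of all summits.

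In 9 of the 45 linked members the closest summit was nearer to another protein-coding gene than to the receptor. With genes of any kind, receptor pseudogenes included, this count was 16. Olfr986, the last gene of its cluster on chromosome 9, had a summit at 40192329, 4235 bases from its end and 13 bases from Zfp202, whose CpG-rich promoter is printed above. Olfr1416 on chromosome 1 had a summit at 92473795, 5886 bases away and 30 bases from Ndufa10, which encodes a subunit of respiratory complex I. Both summits lie in the printed windows of these neighbours. Of the same kind were Olfr311 (5130 bases, beside Gm12258 at 10 bases), Olfr1366 (6005 bases, beside the zinc finger gene Zkscan8 at 145 bases) and Vmn2r57 (6399 bases, beside AI987944 at 46 bases).

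Other neighbours were somewhat farther from the summit. Olfr1393 had its closest summit at 2212 bases, inside Mgat1, a gene of N-glycan synthesis, 1366 bases from an end. Olfr1417, with 3 summits, had the closest at 4387 bases, and Stx3, a syntaxin gene of membrane fusion, was 2121 bases from it. Olfr15 had 2 summits, of which the closest was 3370 bases away and 3907 bases from Zfp174, and the second lay 85 bases from Zfp174. Olfr90 had a summit at 4863 bases, 6023 bases from Gabbr1, which encodes a GABA-B receptor subunit. Transfer RNA genes stood at 3 of the summits: both summits of Olfr750 lay beside n-TLaag8 and n-TPagg4, and that of Olfr1359 beside n-TGgcc7. For Olfr288 the nearest gene was the long non-coding RNA Gm33909 (809 bases), for Olfr1513 the small nuclear RNA Gm26328 (916 bases), and for Vmn2r87, at 1178 bases, the pseudogene Gm18755 (34 bases).

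A further group of linked members had no other gene at hand. For 22 of the 45, no annotated gene of another kind ended within 10 kb of the closest summit, and for 22 no other protein-coding gene ended within 50 kb. Olfr1214 and Olfr1213 shared a summit at 88984534 on chromosome 2, 2731 and 4267 bases away, and the nearest other protein-coding gene, Ptprj, was 1445222 bases from it. Olfr786 on chromosome 10 had a summit at 1917 bases, 473909 bases from Mettl7b. Olfr1341 on chromosome 4 had a summit at 1598 bases, and in the same cluster 2 summits stood beside Olfr1339.

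Other odorant receptors of this group were Olfr1123 (2556 bases), Olfr1280 (3021), Olfr212 (3382), Olfr281 (3671) and Olfr1425 (3870). The summit of Olfr1280 lay inside its annotated span and also linked Olfr1279. Among vomeronasal genes, Vmn1r238 had 2 summits, the closest at 4473 bases, and Vmn2r80, Vmn2r90 and Vmn2r3 had 1 each, at 5304, 5445 and 6775 bases. That of Vmn2r3 lay inside its span of 28466 bases. All of these distances to an end of the gene model exceed 2 kb. The summit of Olfr1280, however, lay 1490 bases from the start used for its promoter window.

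**Figure D2:**
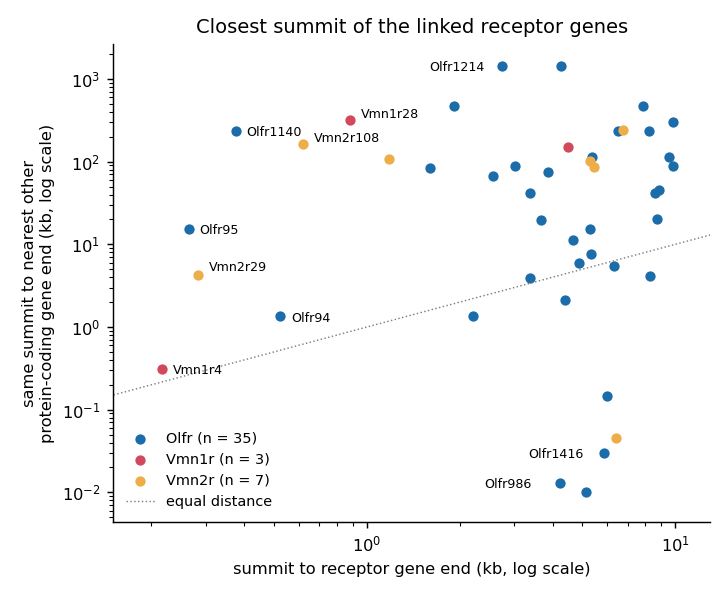
Each point is 1 of the 45 linked receptor genes; the x axis gives the distance of its closest summit to the receptor gene end and the y axis the distance of that summit to the nearest other protein-coding gene end (both kb, log scales). The 9 points under the dotted line of equal distance are receptors with a nearer neighbour, and 22 points lie above 50 kb on the y axis.

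Receptor genes are packed in runs, so the clusters were described as regions. Runs of at least 5 members with gaps of at most 200 kb gave 55 clusters with 1377 members, while 101 members lay outside. The clusters covered 44.3 Mb and held 82 summits, 1.85 per Mb (exact 95% Poisson interval 1.47 to 2.30), against 12.6 per Mb over the annotated span of the autosomes and X. No summit lay in 26 of the clusters, which held 451 members over 16.6 Mb, and 11 clusters held a single summit.

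Density changed at the cluster edges. In the first 50 kb outside a cluster it was 16.5 summits per Mb, between 50 and 100 kb it was 22.9, and between 100 and 200 kb it was 27.9. From 500 kb to 1 Mb away it was 28.4. The flanks were thus denser than the whole annotated span, and the interior was sparser.

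**Figure D3:**
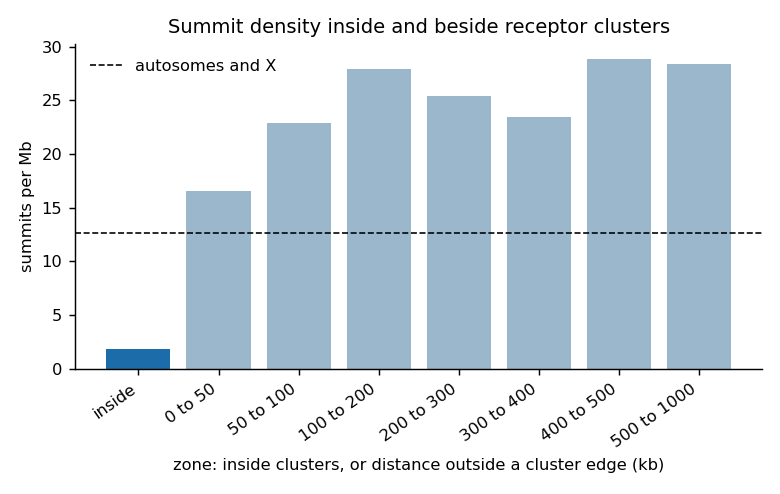
Summits per Mb (y axis) inside the 55 receptor clusters and in zones outside their edges (x axis, kb). The bar for the interior stands at 1.85 and all flanking bars stand above the dashed line, the density over the autosomes and X (12.6 per Mb).

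The largest clusters held 0 to 5 summits each. The cluster of 222 odorant receptor genes on chromosome 2 (85330967 to 90401674) held 5 summits in 5.07 Mb and 6 linked members, among them Olfr1123, Olfr1140, Olfr1213 and Olfr1214. The 95 odorant receptor genes on chromosome 9 (37711348 to 40188094) had 2 summits inside and 3 linked members. On chromosome 7, a cluster of 91 odorant receptor genes (102476773 to 104190205) that also contains the beta-globin genes held 1 summit, 43 bases from an end of Trim68, and had 0 linked members. The 70 Vmn1r genes between 20101158 and 23251682 on chromosome 7 had no summit inside. A cluster of 62 genes on chromosome 10 (128989914 to 130497379) had 4 in 1.51 Mb, of which 1 lay 19 bases from Neurod4, a neural transcription factor gene.

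Some stretches without any summit held many receptor genes. On chromosome 7, 4.05 Mb between the summits at 20031718 and 24081990 contained 86 members and 104 protein-coding genes in all. It ranked as number 7 by length among autosomal gaps between neighbouring summits, and the other 9 of the 10 stretches with most receptor genes ranked from 55 to 348. On chromosome 2, 2.36 Mb from 85060985 to 87421577 contained 97 members of 100 protein-coding genes and ranked as number 65. Among the 20 autosomal summit-free stretches with most protein-coding genes, 14 consisted mostly of receptor genes.

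A few clusters held at least 3 summits, 12 in all. The odorant receptor cluster on chromosome 19 (11828077 to 12423267, 20 members) held 12 summits. Of these, 4 lay within 1 kb of Patl1 and Osbp, a gene of mRNA decay and an oxysterol-binding protein gene, and 6 lay between 12002311 and 12012393, 8197 to 18279 bases past Osbp. The closest receptor to those 6, Olfr1423, was 23415 bases or more away. On chromosome 13 (21346930 to 21703965, 9 members), 8 summits accompanied the zinc finger genes Zscan12, Zkscan3, Zscan26 and Zkscan8 and, at 1 of them, Nkapl. On chromosome 11 (49112777 to 49564858, 19 members), 5 summits lay at or near Zfp62 and Mgat1.

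The 4 summits of the chromosome 17 odorant receptor cluster (37085191 to 38336097, 46 members) included those in Olfr94 and Olfr95, and the other two lay 37829 bases or more from any receptor. Of 4 summits on chromosome 15 (98186011 to 98498406, 9 members), 1 lay 355 bases from Zfp641. On chromosome 19 (12674179 to 13919972, 43 members) summits lay at Zfp91 and Lpxn. In the chromosome 17 vomeronasal cluster (20029425 to 20994686, 17 members), 2 of 3 summits lay within 1 kb of Ppp2r1a, which encodes a scaffold subunit of a protein phosphatase. The 3 summits of a chromosome 7 cluster (7212996 to 7902462, 8 members) lay in Vmn2r29 and near Clcn4. Another cluster there (11669599 to 12362764, 13 Vmn1r genes) held 4 summits, 14397 bases or more from a receptor and 396779 bases or more from another protein-coding gene. The 3 summits of the chromosome 4 cluster (118665519 to 118934840, 13 members) were those beside Olfr1341 and Olfr1339.

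Protein-coding genes inside the clusters that the symbol rule does not take were linked more often than the receptors around them, yet less often than genes at large. Of 90 such protein-coding genes, 23 (25.6%, interval 16.9 to 35.8) had a summit within 10 kb, and 19 (21.1%) within 1 kb. In the 200 kb outside the clusters, 314 of 432 did (72.7%, interval 68.2 to 76.8), and 53.2% within 1 kb. Genes named Zfp, Zscan or Zkscan inside clusters numbered 11, of which 8 had a summit within 1 kb, for instance Zscan12 (27 bases) and Zfp317 (178 bases). This is near the share of Zfp genes anywhere, 276 of 397 (69.5%), while all protein-coding genes stood at 52.9%. Of the other 79 genes inside clusters, 11 had a summit within 1 kb. The 90 include V1ra8 and V1rd19, which carry an older style of vomeronasal receptor symbol that the rule does not take. They also include Vmn1r-ps103 and the formyl peptide receptor genes Fpr-rs3, Fpr-rs6 and Fpr-rs7. The cluster of 70 Vmn1r genes on chromosome 7 gave 14 of the 90, all with Gm symbols and 0 linked. Whether these encode receptors was not checked, so the 25.6% may count some receptors as other genes. The 5 beta-globin genes Hbb-bt, Hbb-bs, Hbb-bh2, Hbb-bh1 and Hbb-y had none, with closest summits from 366203 to 405487 bases away.

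Members at a cluster edge were linked in 13 of 110 cases (11.8%, interval 6.45 to 19.4), those inside in 27 of 1267 (2.13%, interval 1.41 to 3.09) and those outside clusters in 5 of 101 (4.95%, interval 1.63 to 11.2). The median distance to a summit was 56340 bases at the edge and 220049 bases inside. The 7 members on the X chromosome had none. On chromosome 7, with 417 members, 3 were linked, and on chromosome 2, with 287, 9 were.

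The promoter windows of receptor genes differed in composition from those of other genes. Their median GC content was 35.7% (quartiles 32.3 and 39.3) against 57.3% (quartiles 50.0 and 65.0) for genes that are no receptor. They held a median of 1 CpG against 15, with a CpG observed-to-expected ratio of 0.111 against 0.625. The families were close to each other, with median GC contents of 35.0% (Olfr), 36.0% (Vmn1r) and 37.3% (Taar), and with quartiles of 35.9% and 40.0% for Vmn2r. Of the 1276 members with a sequence 40 were linked, against 66.5% of all protein-coding genes with one, and these 40 had a median GC content of 40.2%. No window of the 1276 receptor genes contained a summit, which allows a share of up to 0.235%, while 25.9% of all protein-coding windows did.

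Shares were also taken within classes of CpG content. With 0 or 1 CpG, 21 of 822 receptors (2.55%, interval 1.59 to 3.88) and 223 of 1344 other genes (16.6%, interval 14.6 to 18.7) were linked. With 2 or 3, it was 13 of 368 (3.53%) against 557 of 1831 (30.4%), and with 4 to 6, 3 of 76 (3.95%) against 851 of 1789 (47.6%). With 7 or more, 3 of 10 receptors were linked, against 88.5% of 11252 other genes, but this class is open-ended and the receptors in it held mostly 7 to 13 CpG. These 3 were Vmn2r29, Olfr212 and Olfr750, the receptor genes with most CpG in the window (23, 13 and 11). Many gene models here may start at the coding sequence, which was not checked. Of the spans, 78.7% of Olfr, 87.0% of Vmn1r, 93.3% of Taar and 34.1% of Vmn2r were a multiple of 3 long. Their windows may therefore not be at the true transcription start, and the part of CpG content in the result was not tested.

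**Figure D4:**
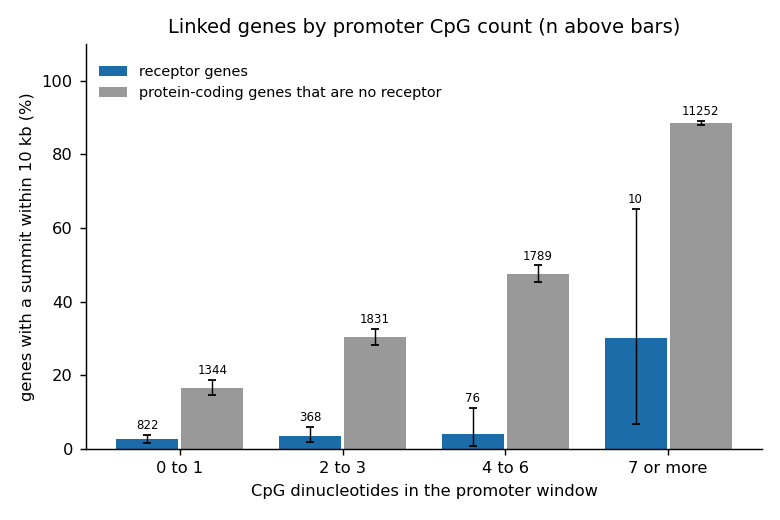
Percent of genes with a summit within 10 kb (y axis) by the number of CpG dinucleotides in the promoter window (x axis), for receptor genes and all other protein-coding genes; whiskers are exact 95% binomial intervals and the number of genes stands above each bar. In every class the receptor bar is lower, from 2.55% against 16.6% at 0 or 1 CpG to 30.0% against 88.5% at 7 or more.

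GATA words were common in receptor promoters. At least 1 of the 4 spellings given above occurred on either strand in 759 of 1276 receptor windows (59.5%, interval 56.7 to 62.2), against 26.7% of all protein-coding windows of the same length. By family the shares were 58.2% (Olfr), 70.2% (Vmn1r), 52.6% (Vmn2r) and 5 of 11 (Taar). Receptors with a word were linked in 24 of 759 cases (3.16%) and those without in 16 of 517 (3.09%). Among genes that are no receptor, 55.0% with a word and 76.7% without were linked. The words are short and rich in A and T, as are the receptor windows, and a match is a description of letters, not a binding site.

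3 other words were searched. TATAAA occurred in 39.8% of receptor windows and 13.3% of all, and TAATTA, a homeodomain word whose first bases can overlap the end of TGATAA, in 16.6% and 4.69%. CCCNNGGG, a word of the Ebf factors of olfactory neurons, occurred in 4.08% and 15.2%. By family, CCCNNGGG was found in 19.0% of Vmn2r windows, above the share of all windows, and in 3.07% of Olfr and 0.488% of Vmn1r windows.

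**Figure D5:**
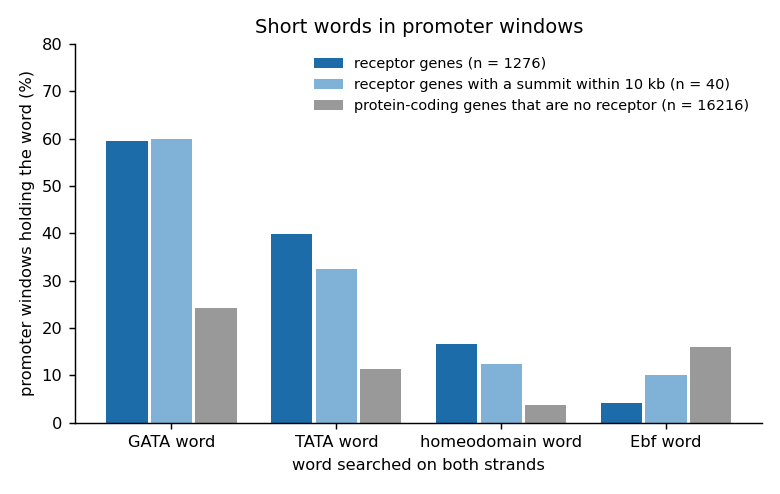
Percent of promoter windows (y axis) holding a GATA, TATA, homeodomain or Ebf word on either strand (x axis), for receptor genes, linked receptor genes and genes that are no receptor. The GATA word stands at 59.5% of receptor windows, 60.0% of linked receptors and 24.1% of other genes.

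Receptor genes are also close copies of each other, and the handling of reads that map to more than 1 place was not stated in the labels. Of the receptor windows, 24.7% shared a stretch of 50 bases with another protein-coding window, against 9.86% of all. The share was 13.5% for Olfr, 55.1% for Vmn1r and 63.8% for Vmn2r. Genes that are no receptor were linked in 11.8% of cases when they shared a stretch and in 77.1% when they did not. Receptors that shared none were linked in 31 of 961 cases (3.23%, interval 2.20 to 4.55), and those that shared a stretch in 9 of 315 (2.86%).

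The genes that work with these receptors were listed by role. Of 17 genes of olfactory signalling, 8 were linked (47.1%, interval 23.0 to 72.2), against 66.6% of all protein-coding genes, a share that the interval holds. Within 1 kb, 5 of the 17 had a summit (29.4%, interval 10.3 to 56.0), against 52.9% of all protein-coding genes, which the interval also holds. Closest were Cnga4, a subunit of the olfactory cyclic nucleotide-gated channel (3 bases), and Ric8b, which assists the olfactory G protein (42 bases). Adcy3, the adenylyl cyclase of olfactory neurons, had a summit at 272 bases, and Pde4a and Slc24a4 at 266 and 389 bases. Gnal, the olfactory G protein subunit, had none within 10 kb (14291 bases), nor did Omp, a marker of mature olfactory neurons (22788), Cngb1 (14298) or Cnga2 (174981).

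All 5 vomeronasal signalling genes were linked: Gnai2 (117 bases), Gng8 (284), Gnao1 (3326), Trpc2, the vomeronasal ion channel (3460), and Ano1 (6179). The interval of this share, 47.8 to 100%, holds the 66.6% of all protein-coding genes. Within 1 kb, 2 of these 5 had a summit, against 52.9% of all protein-coding genes. Factors known to act in receptor gene choice or silencing were linked in 15 of 15 cases (interval 78.2 to 100%), against 66.6% of all protein-coding genes. Of these factors, 13 had a summit within 1 kb, against 52.9% of all protein-coding genes. They included Kdm1a, a histone demethylase (17 bases), Cbx5, a heterochromatin protein (5), Ebf2 (120), Emx2 (147), Lbr (196) and Lhx2 (808). Most of them are known to be used in many tissues, which was not examined here, and the cause of their high share was not tested.

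Other gene families were set beside the receptors and the 66.6% of all protein-coding genes within 10 kb. Tas2r bitter taste receptors were linked in 0 of 35 cases, which allows a share of up to 8.57%, Krtap keratin-associated genes in 2 of 56 (3.57%) and Defb beta-defensin genes in 2 of 42 (4.76%). In the Krtap and in the Defb family, the 2 linked genes shared a single summit. Ms4a genes had 0 of 21, which allows up to 14.3%, and Fpr formyl peptide receptors 0 of 7, which allows up to 42.9%. Within 50 kb the shares of Krtap (30.4%) and Defb genes (31.0%) were above the 16.3% of the receptors. Tas1r sweet and umami receptors had 2 of 3 (Tas1r1 at 134 bases and Tas1r3 at 245), and Zfp genes, also often clustered, had 332 of 397 (83.6%). These are counts side by side, with no test of the differences.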

How the data were processed

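Summit positions in bases are the only values the authors deposited, with start equal to end in every line and no score. The build mm10, MACS2 2.1.1.20160309, Bowtie 1.1.2, HOMER 4.9.1, cutadapt 1.9.1, Trim Galore 0.4.1, bedtools, SAMtools 1.3 and Picard 2.1.0 are named per the submitters' processing notes; settings, the libraries joined and the threshold are not given in the sources used here. Depth is unknown.

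Distances ran from each summit to either end of RefSeq genes of GRCm38.p6, inside or outside the gene; whether positions count from 0 or 1 is open. Promoter windows came from RefSeq, 1 per gene, the entry nearest the gene's 5′ end (17492 protein-coding genes). Shares carry exact 95% binomial intervals. Where a count was 0, the share allowed is instead an approximate limit, 3 divided by the number of genes. No test was made: the list names no library, and genes of a cluster are not replicates. The distance code was tested on simulated data, with 200 of 200 planted genes recovered and 300 of 300 distances matching.

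The members, lists and named genes were chosen with earlier results of these data known. Named were members with a summit within 1 kb, linked Vmn genes, the 20 Olfr genes with the closest summit, their nearest neighbours, the 5 largest clusters and those with at least 3 summits; other named genes were chosen after their values were seen. The tools were scipy 1.17.1, pandas 2.3.3, numpy 2.4.6 and matplotlib 3.10.9 under Python 3.11.15.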

Additional observations from a re-analysis of the deposited data

How the results depend on the processing

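Of 35 alternative values, 19 stayed within the main interval (for counts, within 1.5 times) and 16 moved; the cause was not tested. The distance moved the share of linked receptors from 3.04% to 0.474% at 1 kb, 1.62% at 5 kb and 16.3% at 50 kb, where all protein-coding genes stood at 52.9%, 62.4% and 78%. For Olfr genes it was 0.270% at 1 kb and 17.4% at 50 kb, for Vmn1r 11.7% at 50 kb, and for Vmn2r 1.63% and 15.4%. Counting from the annotated start alone gave 2.19%, against 63.2% of all protein-coding genes. Cluster density was 1.11 per Mb with gaps of 100 kb and 4.76 with gaps of 500 kb, against 12.6 over the autosomes and X. Without summits within 1 kb of other protein-coding ends it was 1.33, against 7.28 over the autosomes and X with the same summits left out. Linked receptors with a nearer other protein-coding gene numbered 9 of 45. With genes of any kind it was 16 of 45, and with links within 5 kb it was 3 of 24. AGATAA alone was in 26.6% and TGATAA alone in 26.9% of receptor windows. A stricter peak threshold was not run, as it needs a score. No paired analysis was possible because no group has a second library and the summits carry no library name. With depth unknown, a missing summit sets no upper limit on binding.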

Other observations

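Receptor pseudogenes, 325 annotated genes with a matching symbol that are not protein-coding, were linked in 6 cases (1.85%, exact 95% binomial interval 0.680 to 3.97), against 14.7% of all annotated pseudogenes. Nearly all were Olfr genes: including them raised the Olfr genes from 1110 to 1428 and the Vmn1r genes from 230 to 233. Pseudogenes named Vmn1r-ps do not match the symbol rule and are left out. A summit within 1 kb was found for 0 of 325, which allows a share of up to 0.923%, against 2.30% of all annotated pseudogenes. Olfr1139-ps1, at 1054 bases, was the closest and shared the summit inside Olfr1140. Olfr334-ps1 (4391 bases) and Olfr1127-ps1 (7513 bases) also lay on chromosome 2, Olfr1421-ps1 (7802 bases) and Olfr1422-ps1 (8662 bases) stood beside the run of summits past Osbp, and Olfr1372-ps1 (9613 bases) lay on chromosome 11.

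The side of the summit was looked at after the values were seen. Of 33 linked receptors with a promoter sequence whose closest summit lay outside the gene, 27 (81.8%) had it beyond the gene's end and 6 on the side of its start. With summits over 1 kb away alone, 26 of 31 receptors (83.9%) had it beyond the end, against 695 of 1221 genes that are no receptor (56.9%). No test was made, since several of these receptors share a summit.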
